A study of Rattus norvegicus with 144 samples.

Results

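The comparison of 2 brain regions in rats that carried no transgene and received no drug is described here: the dorsal hippocampus (HIP) against the prefrontal cortex (PFC) of saline-treated F344 rats (F344_Sal). Its members are the 12 HIP and 12 PFC libraries of these rats, 24 of the 144 libraries in the series, chosen by region, strain, and treatment and not by any measured value. All rats were adult males, and before RNA was taken all had served in a behavioural study. F344_Sal rats were of the F344 inbred strain and received saline at 1 ml/kg with 2 injections per day for 17 days. HIV_Sal rats, used to repeat the comparison, received the same saline and carried on an F344 background an HIV-1 genome without gag and pol, driven by the viral promoter (HIV-1Tg rats). F344_Nic and HIV_Nic rats of the same 2 strains received nicotine at 0.25 mg/ml in the same volume and schedule. Each group held 12 rats, and the regions were taken from the same brains, so the HIP and PFC libraries of a group came from the same 12 animals. The dorsal striatum (STR) of F344_Sal rats serves as the reference for another region. Tissue was punched from brain slices on both sides, so each library mixes all the cell types of a region, and fewer cells of a type cannot be told apart from less RNA per cell.

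The hippocampus and the prefrontal cortex are both built around glutamate-releasing pyramidal neurons with local GABA interneurons and glia. The hippocampus, which has the dentate granule cells and the CA fields, is known for its part in spatial and episodic memory, whereas the layered prefrontal cortex is known for working memory and the control of behaviour. The striatum, in contrast, consists mostly of GABA-releasing projection neurons that receive dense dopamine input.

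The tables give FPKM (fragments scaled to transcript length and to the number of mapped fragments) for each transcript in each rat, and 38931 annotated transcripts were tracked in both regions. The number of reads per library is unknown. Base coverage divided by FPKM, a relative measure of depth, was 1.64 to 2.49 in the HIP and 2.12 to 3.53 in the PFC libraries of F344_Sal rats, so that depth moved with region, and its part in the results was not tested. Each region was also tracked in a run of its own, so region and run cannot be told apart. Between 15377 and 16380 of the transcripts were above 0.01 FPKM in each of the 24 libraries. Nothing in the labels ties a replicate number to 1 animal across regions, so the libraries were compared unpaired, and "HIP rat" and "PFC rat" with a number name a library only.

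4 libraries of the saline groups went against their labels. Each library was correlated with the mean profile of every region in the other groups, over 13328 transcripts with a mean FPKM over 1, and 140 of 144 libraries were most like their labelled region. The library labelled F344_Sal HIP rat 10 had r = 0.771 with STR, 0.739 with HIP, and 0.726 with PFC, whereas the library labelled F344_Sal STR rat 10 had r = 0.782 with HIP and 0.731 with STR. The same held in HIV_Sal rats, where the library labelled HIP rat 6 had r = 0.778 with STR and 0.741 with HIP, and the library labelled STR rat 6 had r = 0.788 with HIP and 0.735 with STR. The other 11 F344_Sal HIP libraries had r from 0.770 to 0.795 with HIP and none above 0.730 with STR. Labels were kept, and results are given with and without the library labelled HIP rat 10.

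**Figure D1:**
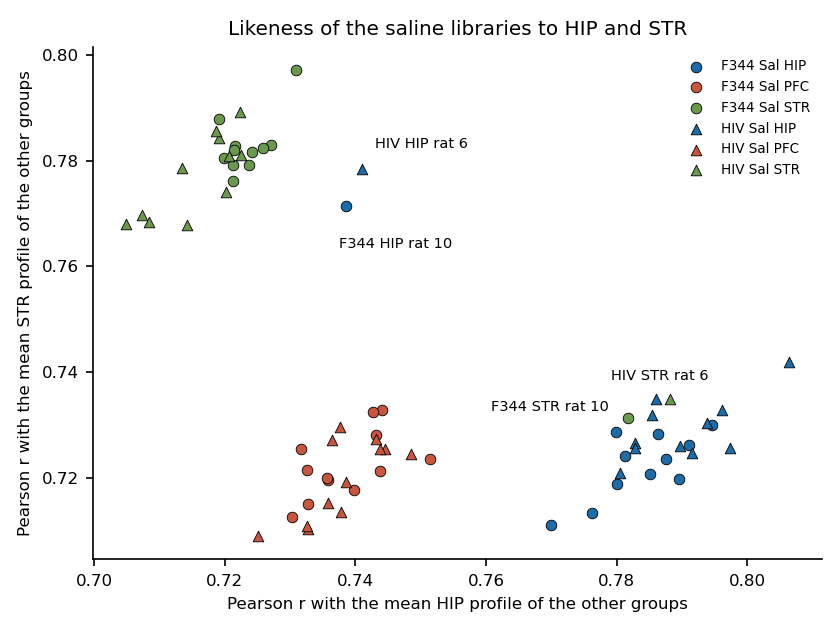
Likeness of the 72 saline libraries to 2 regions: the x axis is the Pearson r of each library with the mean HIP profile of the other groups and the y axis the r with their mean STR profile, with circles for F344_Sal and triangles for HIV_Sal. HIP rat 10 (0.739, 0.771) and HIV HIP rat 6 (0.741, 0.778) sit with the STR libraries, and the libraries labelled STR rat 10 and HIV STR rat 6 sit with the HIP libraries.

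Genes known to differ between regions showed the same. Gnal encodes the G protein subunit Golf alpha, which couples dopamine and adenosine receptors to adenylyl cyclase and is known for its high level in the striatum. Its FPKM, summed over its 2 annotated transcripts, was 16.6 to 29.7 (median 26) in 11 HIP rats and 71.6 in the library labelled HIP rat 10. It was 44.1 to 103 in 11 STR rats and 18.7 in the library labelled STR rat 10. Ephb1, a receptor for ephrin-B ligands that guides axons, was at 6.5 to 9.3 FPKM in 11 HIP rats and at 12.6 in rat 10, against 12.9 to 18.3 in 11 STR rats and 7.31 in STR rat 10. For both genes the library labelled HIP rat 10 lay outside the range of the other HIP rats and in or near that of STR, and the library labelled STR rat 10 lay within the range of the HIP rats.

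The calls between HIP and PFC took in a limited share of transcripts, about equally in both directions. Of 14492 transcripts above 0.01 FPKM in at least 6 rats of both regions, 1629 differed (11.2% of those tested) at an adjusted p under 0.05 and a fold change over 1.2, by limma with Benjamini-Hochberg adjustment. They comprised 827 that were higher in HIP (5.71%) and 802 that were higher in PFC (5.53%). The median size of the called differences was 0.828 on the log2 scale, and 645 transcripts (4.45%) differed by over 2-fold, 308 higher in HIP (2.13%) and 337 higher in PFC (2.33%). Without the library labelled HIP rat 10, 14169 transcripts were tested and 1787 called (12.6%), 911 higher in HIP (6.43%) and 876 higher in PFC (6.18%). With values close to 0 and outliers left out, 3839 of at most 14492 transcripts were called. In simulated libraries with the spread of PFC rats, the fit found 60% of 200 transcripts changed by 2 on the log2 scale. Transcripts that were not called may thus differ too. Complete separation of the 12 and 12 rats was rarer: 196 transcripts (1.35%) had groups that did not overlap, 74 of them higher in HIP (0.511%) and 122 higher in PFC (0.842%). That count rose to 386 (2.72%), with 200 higher in HIP (1.41%) and 186 higher in PFC (1.31%), once the library labelled HIP rat 10 was left out.

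The library labelled HIP rat 10 behaved unlike the other HIP libraries at the transcripts that told the regions apart. At the 900 transcripts called higher in HIP without that library and measured in it, its value was nearer to the mean of the other HIP rats than to the PFC mean at 47.1%, whereas each of the other 11 HIP libraries was nearer to HIP at 86.8% to 89.8%. Those 11 took part in the call and in the HIP mean, and rat 10 did not. The library labelled STR rat 10, which took no part either, was nearer to HIP at 82.9% of them. At those called higher in PFC the shares were 50.3% for HIP rat 10 and 82.7% for STR rat 10.

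The transcripts with the largest differences are given by identifier, since the tables pair no transcript with a gene name. They were chosen as the 2 highest and 2 lowest log2 differences among the transcripts called in the same direction in both F344_Sal and HIV_Sal rats, so their presence in both strains is part of the choice. A mean FPKM of at least 1 in the higher region was also needed. Transcripts above 0.01 FPKM in fewer than 6 rats of either region were not tested and so not ranked. ENSRNOT00000010439, 2933 bases long, was at 21.3 to 164 FPKM (median 73.8) in 11 HIP rats and at 1.63 in the library labelled HIP rat 10. In PFC it was at 11.6 or less (median 2.07), and 1 rat was listed at 0. It was 4.73 ± 0.65 (SE) higher in HIP on the log2(FPKM + 0.1) scale (adjusted p = 1.32e-05, limma), a scale that understates the change of transcripts near 0, and 5.16 ± 0.52 higher without rat 10. Of the HIP rats, 11 lay above every PFC rat. In STR it was at 2.37 to 6.02 FPKM in 11 rats and at 144 in the library labelled STR rat 10.

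ENSRNOT00000006862, 2452 bases long, was at 1.33 to 7.47 FPKM (median 3.96) in 11 HIP rats and listed at 0 in rat 10. No PFC rat was above 0.304 (median 0.0239), and no STR rat above 0.0387 except STR rat 10 at 2.97. The log2 difference was 4.26 ± 0.49 (adjusted p = 1.14e-06, limma), and 4.69 ± 0.29 without rat 10. This transcript was thus close to 0 in the PFC and the STR and present in the HIP at a low level.

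In the other direction, ENSRNOT00000044799, 1936 bases long, had a median of 10.4 FPKM in PFC and a highest value of 18.7, with 3 PFC rats listed at 0. All 12 HIP rats were at 0.208 or less (median 0.0209), and the highest of them was rat 10. Its log2 difference was -4.89 ± 0.89 (adjusted p = 0.000424, limma), and STR rats were at 0.424 or less. ENSRNOT00000068139, 4134 bases long, had a median of 6.8 and a highest value of 13.8 FPKM in PFC, with 1 rat listed at 0, against a median of 0.354 and a highest value of 1.53 in HIP. Its log2 difference was -4.09 ± 0.68 (adjusted p = 0.000137, limma), and STR rats were at 2.84 FPKM or less. It was not called in F344_Nic rats (-2.16, adjusted p = 0.108, limma), where 4 PFC rats were listed at 0. These PFC transcripts were near 0 in HIP whether or not rat 10 was counted, with differences of -5.01 and -4.16 without it.

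**Figure D2:**
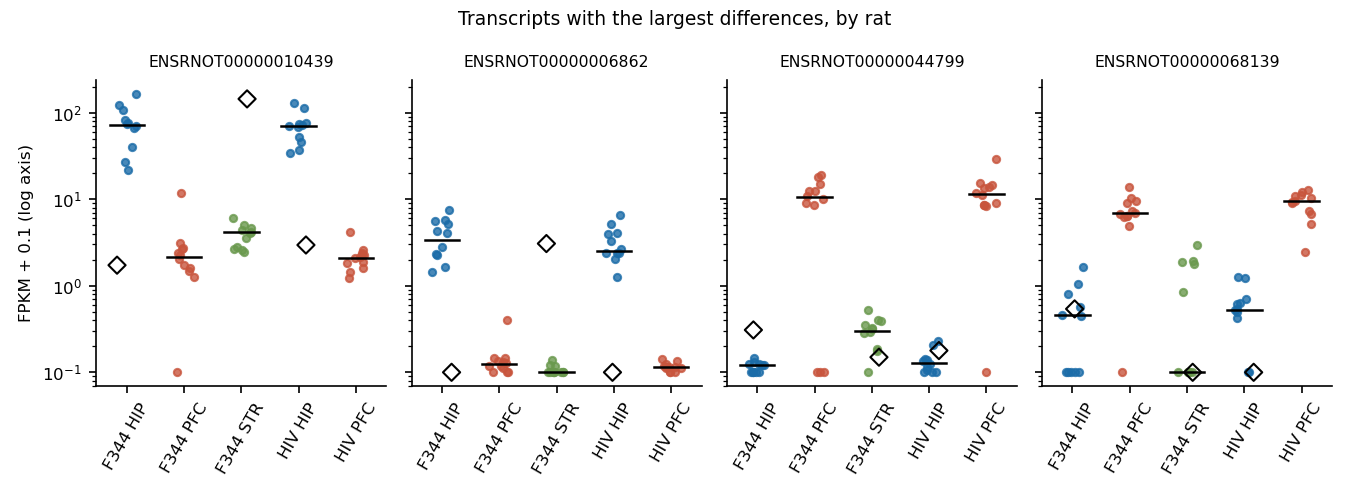
FPKM + 0.1 on a log axis for each rat, for the 4 transcripts with the largest differences called in both strains, in the HIP, PFC, and STR of F344_Sal and the HIP and PFC of HIV_Sal rats. Bars are medians, and open diamonds mark the libraries labelled HIP rat 10, STR rat 10, and HIV_Sal HIP rat 6, which lie apart from their groups in the left 2 panels.

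Across the 10 transcripts highest in HIP under the same rule, the log2 differences were 3.25 to 4.73, and across the 10 highest in PFC they were -4.89 to -3.54. All 20 were called without the library labelled HIP rat 10 too. In F344_Nic rats 8 of the 10 highest in HIP and 9 of the 10 highest in PFC were called (19.2% of all transcripts). In HIV_Nic rats they were 9 and 8 (8.57% of all), and transcripts not tested count as not called. That library was below the other 11 HIP rats at 7 of the 10 that were highest in HIP and above them at 1. Likewise the library labelled HIV_Sal HIP rat 6 was below its group at 7 of these 10. The 20 were chosen by the size of their difference in these same rats, so separation more frequent than among all transcripts follows from the choice. HIP and PFC rats did not overlap at 7 of the 10 highest in PFC (0.842% of all transcripts did so in that direction) and at 2 of the 10 highest in HIP (0.511%). Without the library labelled HIP rat 10 these counts were 7 and 8 (1.31% and 1.41% of all), so the gap between the directions rested on that library.

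The striatum did not side with either region at the called transcripts. Over 11 STR rats, without STR rat 10, the mean log2 level was nearer to HIP at 440 of 906 transcripts called higher in HIP (48.6%), and nearer to HIP at 460 of 873 called higher in PFC (52.7%), both called without HIP rat 10. STR lay above both regions at 229 of the former and below both at 240. Where HIP was the higher region, STR was thus about as often nearer to PFC as to HIP.

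The comparison was repeated in the HIV_Sal rats, which share no library with F344_Sal. There 1910 of 14278 transcripts were called (13.4%), 1068 higher in HIP (7.48%) and 842 higher in PFC (5.9%). This lean to HIP depended on the scaling, since 910 of 1886 calls (48.3%) were higher in HIP after quantile normalization and 51.8% after median scaling. In F344_Sal rats the same shares were 47.6% and 49.9%. With values close to 0 and outliers left out, 4116 of at most 14278 transcripts were called in HIV_Sal rats. Of the 1629 transcripts called in F344_Sal rats, 1573 were tested in HIV_Sal rats, 1533 of them differed in the same direction (97.5%), and 1037 were called there in that direction (65.9%). No transcript was called in opposite directions. Among the 11839 transcripts tested in both strains that were not called in F344_Sal rats, 67% had the same direction. The median size of the 1573 differences was 0.819 in F344_Sal rats and 0.716 in HIV_Sal rats. When HIP rat 10 and HIV_Sal HIP rat 6 were left out, 14.6% of transcripts were called in HIV_Sal rats. Then 1673 of 1726 had the same direction (96.9%) and 1139 were called (66%).

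**Figure D3:**
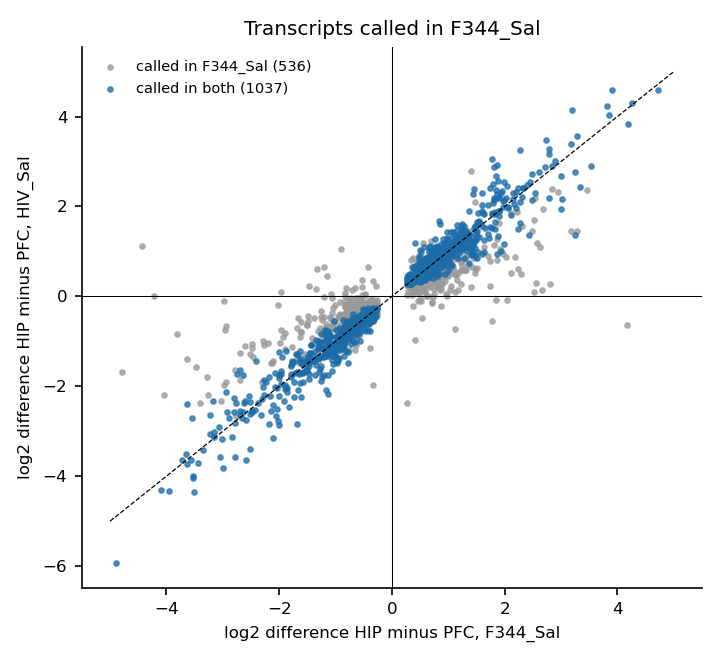
Log2 differences HIP minus PFC of the transcripts called in F344_Sal rats and tested in both strains, F344_Sal on the x axis and HIV_Sal on the y axis, each point a transcript and the dashed line equality. Of 1573 points, 1037 were called in both strains, and 1533 lie in the lower left or upper right quadrant.

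Whether the regional difference itself differed between the strains was tested with an interaction term. None of 13412 transcripts passed (0% called) in limma with adjustment, and 524 had an unadjusted p under 0.05 (3.91%). The smallest adjusted p was 0.994. Without HIP rat 10 and HIV_Sal HIP rat 6, none of 13099 passed and 543 had an unadjusted p under 0.05 (4.15%). The median SE of the interaction was 0.451 on the log2 scale, so that only large strain differences could have been found for most transcripts. After values close to 0 and outliers were left out, as the study's methods describe, 3 transcripts passed.

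In nicotine-treated rats, which share no library with the saline rats, 2724 of 14172 transcripts were called in F344_Nic (19.2%) and 1237 of 14428 in HIV_Nic (8.57%). The latter count was 1904 of 13501 (14.1%) without the libraries HIV_Nic HIP rat 4 and PFC rats 10 and 11, which were least like their groups. Of the transcripts called in F344_Sal rats, 1443 of 1563 had the same direction in F344_Nic rats (92.3%) and 1517 of 1591 in HIV_Nic rats (95.3%). F344_Nic rats were the group in which some were called in the opposite direction, 47 in all. Only counts are given, as differences between saline and nicotine rats in the regional difference were not tested.

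Of the genes the study names, 21 could be linked to transcripts in the tables, and they are given in order of their roles. The names rest on a match of printed means and errors to the tables, in which up to 5 rats per group could be left out beside values at 0. These genes were chosen by the study for effects of strain or drug in the same libraries, not for a difference between regions. One transcript was taken for each gene, and 18 of the 21 passed the filter on low values. Of these, 2 were called (11.1%, against 11.2% of all transcripts tested), 1 higher in HIP and 1 higher in PFC. The median log2 difference was 0.41 for these 18 and 0.02 for all transcripts tested, and the same numbers were called without the library labelled HIP rat 10. In the other groups the calls fell on partly other genes. They were 2 of 18 in HIV_Sal rats (11.1%, against 13.4% of all), Wnt5a and Idh3b, and 5 of 17 in F344_Nic rats (29.4%, against 19.2% of all), Cabp1, Wnt5a, Gstm7, Idh3b, and Mdh1. In HIV_Nic rats 2 of 18 were called (11.1%, against 8.57% of all), Cabp1 and Gsr.

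**Figure D4:**
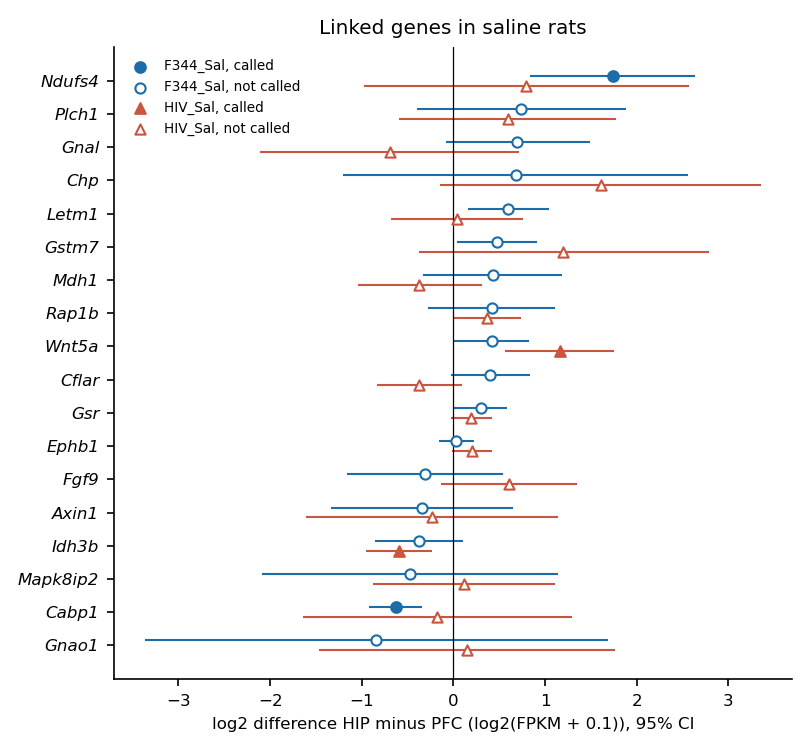
Log2 differences HIP minus PFC of the 18 tested linked genes with 95% confidence intervals, circles for F344_Sal and triangles for HIV_Sal rats, filled where called. Cabp1 and Ndufs4 were called in F344_Sal rats, and Wnt5a and Idh3b in HIV_Sal rats.

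Among genes of calcium signalling, Cabp1 was lower in HIP. It encodes a neuronal calcium-binding protein related to calmodulin that acts on calcium channels. Its transcript ENSRNOT00000001551 was at 13.9 to 28.7 FPKM (median 23.4) in HIP and at 20.5 to 53.3 (median 33.1) in PFC rats, and 9 of 12 PFC rats were above every HIP rat. The log2 difference was -0.63 ± 0.14 (adjusted p = 0.00338, limma), or 1.55-fold lower in HIP, and -0.57 ± 0.14 without rat 10 (adjusted p = 0.00485). With all 12 groups of the series in the fit, which share 1 estimate of the spread, the log2 difference stayed at -0.63 and the call was lost (adjusted p = 0.267).

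A second transcript of Cabp1, ENSRNOT00000039281, went the same way, at a median of 15.4 FPKM in HIP, where 2 rats were listed at 0, and at 20.5 to 60.8 in PFC (log2 difference -2.52, adjusted p = 0.046, limma). Summed over its transcripts, Cabp1 was at 26 to 51.1 FPKM in HIP (median 35.8) and at 54.3 to 95.6 in PFC (median 77.3), so that no HIP rat reached the lowest PFC rat. The difference of the sum was -1.09 on the log2 scale (adjusted p = 7.38e-07, limma), in a fit in which 11.6% of gene sums were called (13.1% without rat 10). In STR the sum was 18.1 to 34.3 FPKM, below every PFC rat. The regions overlapped in HIV_Sal rats, where the sum was 18.3 to 53.6 in HIP and 40.6 to 104 in PFC, and in HIV_Nic rats (23 to 53.1 and 28 to 278). They did not overlap in F344_Nic rats (16.5 to 45.5 and 73.1 to 97.4). In HIV_Sal rats the log2 difference of ENSRNOT00000001551 was -0.18 (adjusted p = 0.917), where 1 PFC rat was listed at 0 and the medians were 20.9 in HIP and 41.1 in PFC. It was called in F344_Nic rats (log2 difference -0.84, adjusted p = 1.78e-05) and in HIV_Nic rats (-0.81, adjusted p = 0.000632).

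The other genes of calcium signalling did not pass the test. Letm1, an ion exchanger of the inner mitochondrial membrane, was at 10.5 to 29.7 FPKM in HIP (median 21.3) and 7.25 to 25.7 in PFC (median 12.7), with a log2 difference of 0.6 ± 0.21 (adjusted p = 0.073, limma). The groups overlapped, and leaving out HIP rat 2, or PFC rat 2, 4, or 9, brought its adjusted p to between 0.0311 and 0.0399. Plch1, a phospholipase C that calcium activates, and Chp, a calcineurin-like calcium-binding protein, had log2 differences of 0.74 ± 0.55 and 0.68 ± 0.91. With values close to 0 and outliers left out, that of Plch1 turned to -0.50, not called. For Chp it was 1.23 without HIP rat 10 and 0.20 without PFC rat 4 or PFC rat 11, not called in either case. Calm3, one of the calmodulin genes, was listed at 0 in 7 HIP and 10 PFC rats and at 157 to 504 FPKM in the other PFC rats, and it was not tested.

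Among mitochondrial and metabolic genes, Ndufs4 was called higher in HIP. It encodes a subunit of complex I of the respiratory chain. Its transcript was at 67.5 to 105 FPKM in 10 HIP rats and at 8.58 and 18.8 in the other 2. In PFC it was at 10.4 to 14.8 in 10 rats and at 79.7 and 110 in the other 2. The log2 difference was 1.74 ± 0.44 (adjusted p = 0.00828, limma) and 1.67 without HIP rat 10 (adjusted p = 0.0134). With all 12 groups in the fit the difference was again 1.74 and not called (adjusted p = 0.0709). It was not called in F344_Nic rats (0.82 ± 0.44, adjusted p = 0.225) or in HIV_Nic rats, where the difference was -0.49 ± 0.55 (adjusted p = 0.698).

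The regions thus differed in how many rats were at each of 2 separate levels of Ndufs4, and the ranges of these levels overlapped between HIP and PFC. In STR, 6 rats were at 9.13 to 14.9 FPKM and 6 at 94 to 107. In HIV_Sal rats, 10 of 12 were at 68.2 to 89.5 in HIP and 9 of 12 at 13 to 16.3 in PFC, and the log2 difference of 0.79 ± 0.86 there was not called (adjusted p = 0.627), with 1 HIP rat listed at 0. In HIV_Nic rats, 6 of 12 were at 79.6 to 108 in HIP and 7 of 12 at 78.6 to 169 in PFC.

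Mdh1, the cytosolic malate dehydrogenase, also had separate levels, at 28.1 to 52.4 FPKM in 9 HIP rats and at 219 to 310 in 3, among them rat 10. All PFC rats were at 34.7 to 62 FPKM, and the log2 difference was 0.43 ± 0.37 (adjusted p = 0.551, limma) and 0.22 without rat 10. In F344_Nic rats the high level was seen in PFC instead, at 304 to 410 FPKM in 5 of 12 rats, and Mdh1 was called lower in HIP (-1.59 ± 0.44, adjusted p = 0.0109). The log2 difference of Mdh1 was -0.37 in HIV_Sal rats (adjusted p = 0.536) and -0.52 in HIV_Nic rats (adjusted p = 0.263). Idh3b, a subunit of the isocitrate dehydrogenase of the citric acid cycle, was at 57.7 ± 25.9 FPKM in HIP and 70.4 ± 23.6 in PFC (SD, n = 12). Its log2 difference was -0.37 ± 0.23 in F344_Sal rats (adjusted p = 0.379) and -0.59 ± 0.17 in HIV_Sal rats, where it was called (adjusted p = 0.0228). It was also called in F344_Nic rats (-0.71 ± 0.19, adjusted p = 0.00899) and not in HIV_Nic rats (-0.19, adjusted p = 0.759, and 0.13 without the 3 HIV_Nic libraries least like their groups). The interaction for Idh3b was -0.22 ± 0.29 (adjusted p = 0.994), so that a difference between strains was not found.

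**Figure D5:**
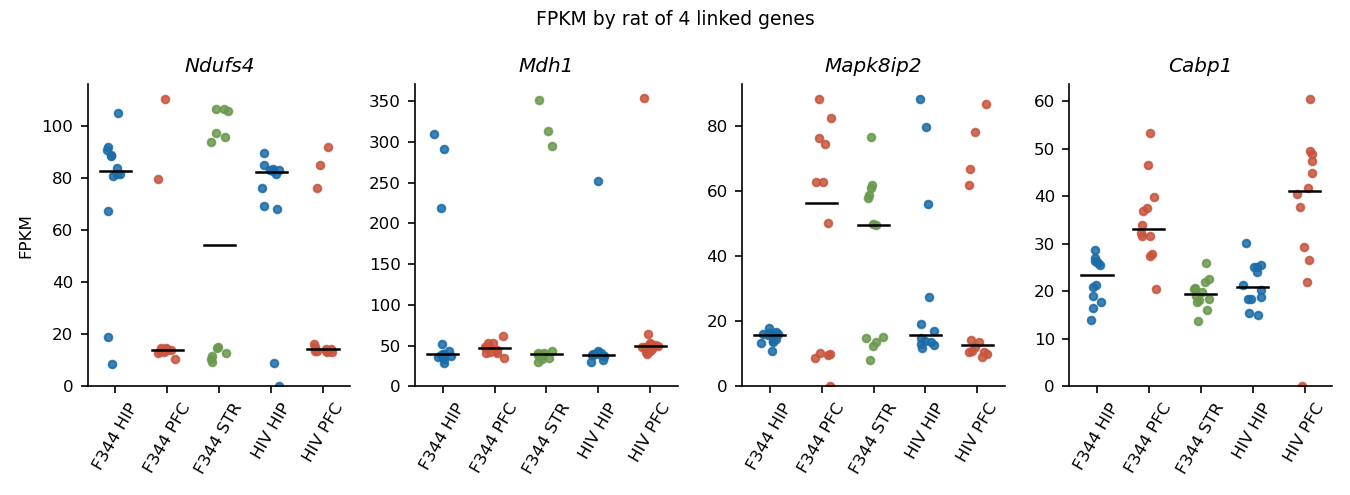
FPKM of 4 linked genes in each rat, on linear axes that start at 0, for the HIP, PFC, and STR of F344_Sal and the HIP and PFC of HIV_Sal rats, with bars at the medians. Ndufs4, Mdh1, and Mapk8ip2 fall at separate levels within a region, whereas the Cabp1 values of F344_Sal HIP and PFC rats spread from 13.9 to 53.3 without such a gap.

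Of the Wnt pathway genes, none was called in F344_Sal rats. Wnt5a, a secreted ligand that acts mainly outside the beta-catenin route, was at 0.339 to 1.27 FPKM in HIP (median 0.931) and 0.277 to 0.803 in PFC (median 0.685). 7 of 12 HIP rats were above every PFC rat, and the log2 difference was 0.42 ± 0.2 (adjusted p = 0.201, limma). In HIV_Sal rats Wnt5a was called, 1.16 ± 0.29 higher in HIP (adjusted p = 0.00646), with medians of 0.794 in HIP and 0.396 in PFC. It was also called in F344_Nic rats (0.99 ± 0.3, adjusted p = 0.0178) and not in HIV_Nic rats (0.86 ± 0.49, adjusted p = 0.348). Without the 3 HIV_Nic libraries least like their groups it was 0.52 (adjusted p = 0.579). The interaction with strain was 0.74 ± 0.34 (unadjusted p = 0.0364 in limma, adjusted p = 0.994), so that the difference between strains did not pass. Axin1, a scaffold of the complex that degrades beta-catenin, was at a mean of 4.6 FPKM in HIP and 4.59 in PFC, and Wnt7a was listed at 0 in 10 rats of each region and not tested.

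Of the G protein, receptor, and growth factor genes, no linked transcript was called. For Ephb1 the log2 difference was 0.03 ± 0.09, with a 95% confidence interval of -0.16 to 0.23, which is the narrowest of the linked genes, and it was -0.03 without HIP rat 10. Gnao1, the alpha subunit of the G protein Go, was at 42.6 to 69.5 FPKM in 10 HIP rats and listed at 0 in 2, and 1 PFC rat was listed at 0 too. The log2 difference of -0.84 ± 1.22 was -1.60 without PFC rat 8 and -0.16 without HIP rat 5 or HIP rat 11. Fgf9, a growth factor made by neurons, had a log2 difference of -0.31 ± 0.41, which ranged from -0.53 to -0.18 as each library was left out. Mapk8ip2, a scaffold protein of the JNK pathway, was at 10.9 to 17.9 FPKM in all HIP rats, whereas 7 PFC rats were at 50.1 to 88.2 and 5 at 10.1 or less. Its log2 difference was -0.47 ± 0.78 (adjusted p = 0.796, limma), and -1.17 without PFC rat 6 (adjusted p = 0.0714) and -0.28 without PFC rat 2. With values close to 0 and outliers left out, Mapk8ip2 was called lower in HIP (adjusted p = 0.0431, limma).

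Of the 2 Gnal transcripts, 1 was called, and the difference between them was not tested. The linked transcript ENSRNOT00000013958 was at 7.19 to 18.3 FPKM in 11 HIP rats, 36.8 in the library labelled HIP rat 10, and 1.6 to 14.7 in PFC. Its log2 difference was 0.7 ± 0.38 (adjusted p = 0.282, limma) and 0.57 without rat 10 (adjusted p = 0.389). The other, ENSRNOT00000025172, was called higher in HIP (0.97, adjusted p = 0.00471), and 0.84 higher without HIP rat 10 (adjusted p = 0.00439). The sum of both was 16.6 to 71.6 FPKM in HIP and 7.72 to 25.7 in PFC, 0.76 higher in HIP on the log2 scale (adjusted p = 0.0246) and 0.63 higher without rat 10 (adjusted p = 0.0288). In HIV_Sal rats neither transcript was called: the log2 difference of ENSRNOT00000025172 was 0.88 (adjusted p = 0.518) and that of ENSRNOT00000013958 was -0.69 ± 0.68 (adjusted p = 0.585). Without HIV_Sal HIP rat 6 they were 0.64 (adjusted p = 0.654) and -0.21 (adjusted p = 0.855). The latter transcript was not called in F344_Nic rats (-0.41, adjusted p = 0.352) or in HIV_Nic rats (0.42, adjusted p = 0.57, and 0.79, adjusted p = 0.0961, without the 3 libraries least like their groups).

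Ntrk2, the receptor for the growth factor BDNF, was not tested by transcript, since the linked transcript was listed at 0 in 8 of 12 PFC rats and the other one with signal in 7 of 12 HIP rats. Its sum was 24 to 77.1 FPKM in HIP (median 47.3) and 0 to 71 in PFC (median 32.8), a log2 difference of 1.8 (adjusted p = 0.26, limma). The groups overlapped. The linked transcript could be tested in the other groups, where it was not called. In HIV_Sal rats it was 3.77 ± 1.28 higher in HIP on the log2 scale, with an adjusted p of 0.05 at the threshold, and 3.69 (adjusted p = 0.0653) without HIV_Sal HIP rat 6. It was 3.67 ± 1.46 in F344_Nic rats (adjusted p = 0.0824) and 2.03 ± 1.58 in HIV_Nic rats (adjusted p = 0.533), and 5 or 6 of 12 PFC rats were listed at 0 in each of these groups. The other transcript with signal went the other way in HIV_Sal rats (-1.95, adjusted p = 0.429), and the medians of the sum there were 40.3 FPKM in HIP and 35.5 in PFC.

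The linked genes of glutathione metabolism, cell survival, and cell adhesion did not pass the test in F344_Sal rats. Gsr, the glutathione reductase, was at 12.5 ± 1.84 FPKM in HIP and 10.3 ± 2.34 in PFC (SD, n = 12), with a log2 difference of 0.3 ± 0.14 (adjusted p = 0.195, limma). Gsr was called higher in HIP in HIV_Nic rats (0.44 ± 0.1, adjusted p = 0.0037). Gstm7, a glutathione transferase, had a log2 difference of 0.48 ± 0.21 (adjusted p = 0.166) and was called in F344_Nic rats (0.63 ± 0.21, adjusted p = 0.0397). Cflar, an inhibitor of caspase activation, had one of 0.4 ± 0.21 (adjusted p = 0.264). Rap1b, a small GTPase of cell adhesion, had one of 0.42 ± 0.34. Counting all 23 tested transcripts of the linked genes, 4 were called (17.4%, against 11.2% of all), 2 in each direction, and these were the 2 of Cabp1, the second one of Gnal, and that of Ndufs4. In HIV_Sal rats 2 of the 21 tested there were called (9.52%, against 13.4% of all), and none of these 4 was among them.

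The share of transcripts called rose with their level. It was 8.74% of 3949 transcripts with a mean under 1 FPKM, 9.41% at 1 to 5, 12.8% at 5 to 20, 16.3% at 20 to 100, and 17.3% of 283 above 100 FPKM. The called differences were smaller at high levels, with a median size of 1.01 on the log2 scale under 1 FPKM and 0.551 above 100 FPKM. Transcripts shorter than 1000 bases were called at 14.8%, against 9.6% at 1000 to 2000 bases, 11.1% at 2000 to 4000, and 9.68% above that. Their median SE was 0.247, against 0.43 for transcripts longer than 4000 bases. Without HIP rat 10 the shares were 9.43% under 1 FPKM and 18.9% above 100 FPKM, and 15.5% for the shortest and 11.6% for the longest transcripts.

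Few genes had transcripts that differed in opposite directions. Of 769 reference genes with 2 or more transcripts tested, 95 had at least 1 called, and 2 had 1 transcript higher in HIP and another higher in PFC. In HIV_Sal rats neither pair was called in the same opposite directions. Some transcripts were listed above the limit in 1 region alone, which need not mean absence from the other, since genes such as Calm3 and Gnao1 were also listed at 0 in some rats. Of these, 80 were above 0.01 FPKM in at least 6 HIP rats and in no PFC rat, and 66 in at least 6 PFC rats and in no HIP rat, with median levels of 0.728 and 0.219 FPKM and highest means of 62.7 and 15.5. These counts were 68 and 93 without the library labelled HIP rat 10. In HIV_Sal rats the counts were 82 and 60, and 67 and 91 without HIV_Sal HIP rat 6. Which region had more thus depended on 1 library in both strains. All these counts are out of the 38931 transcripts tracked in both regions.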

How the data were processed

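Libraries were made from extracted total RNA with a TruSeq RNA kit, and 144 were sequenced, 12 per group and region. Reads were mapped by the authors to Rn4 with TopHat and Bowtie (version 1.04, per the submitters' processing notes), and they deposited the FPKM of each Cufflinks transcript, 1 table per region and strain, as a field of packed cells. 0 columns of sample values were left unused. The members and lists were chosen with earlier results of these data known.

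Rows of class "=" were joined by reference gene and transcript, and several records in a cell were averaged. Missing cells (2.55% in HIP and 2.8% in PFC) were left out. log2(FPKM + 0.1) was fitted by region in limma 3.58.1 (R 4.3.3) with a trended prior, over transcripts above 0.01 FPKM in at least 6 rats of both groups, after the fit was tested on simulated data. Calls needed a fold change over 1.2 and an adjusted p (Benjamini-Hochberg) under 0.05. The highest correlation between 2 of the 24 libraries was 0.652, so no duplicates were found. P-values measure the spread between rats and ignore that both regions came from the same animals.

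Named transcripts were, by rule, those with the 10 highest and 10 lowest differences called in both strains at a mean FPKM of at least 1 in the higher region, of which 2 each are printed, and the genes the study names. Since no table used here pairs identifiers with symbols, a gene was linked where all group means and errors that the study prints for its region equalled a transcript's within rounding, and those of no other transcript did. Values at 0 and up to 5 extreme rats per group (at most 4 at 1 end) could be left out, with at least 6 kept, since the study's outlier rule is not given in the sources used here. This search, set up after the data were examined, linked 21 genes. For Wnt7a, Calm3, Cabp1, and Letm1 it led to a record of another class, and the annotated transcript of that gene with the highest mean was used. Marker gene lists were not analysed here.

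Alternatives were pseudocounts of 1 and 0.01, 3 other filters, 2 normalizations, sample weights, all 12 groups in the fit, gene sums, a replicate block, and each library left out. Another left out values at or under 0.01 FPKM and outliers (1.5 interquartile ranges, assumed), after the removal step that the study describes. Missing values as 0, summed records, and the libraries that stood apart left out together were added after the data were examined.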

Additional observations from a re-analysis of the deposited data

How the results depend on the processing

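The counts of called transcripts moved by over 1.5 times with the removal of outliers and with stricter calls. With values close to 0 and outliers left out, 3839 transcripts were called in F344_Sal rats, 4116 in HIV_Sal rats, and 3 in the interaction. By construction that setting leaves less spread within groups, and it tested at most 14492, 14278, and 13412 transcripts. A fold change over 2 left 645 of 14492 transcripts in F344_Sal and 707 of 14278 in HIV_Sal rats. Groups that did not overlap left 196 of 14492 and 310 of 14278. Leaving out each library in turn gave 1500 to 1787 calls in F344_Sal and 1794 to 2045 in HIV_Sal rats. Without HIP rat 4 and PFC rats 10 and 11, HIV_Nic rats had 1904 calls in place of 1237. The other alternatives kept the counts within 1.5 times. No pairing by replicate number was detected. Deviations of HIP and PFC libraries with the same number correlated at -0.0368 to 0.038 in F344_Sal and -0.0325 to 0.0437 in HIV_Sal rats. Of the 12 HIP libraries, 1 and 2 correlated best with their own number. Values near 0 cannot exclude that a number marks the same animal, since noise between libraries could hide it. With the replicate number as a block, 1343 of at most 14492 and 1578 of at most 14278 transcripts were called, and none in the interaction.

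Of 284 values of the 22 named transcripts under the alternatives, 274 kept their direction and side of the threshold. Cabp1 and Ndufs4 lost their call with all 12 groups in the fit, at differences of the same size, while Wnt5a, Mapk8ip2, Cflar, and Letm1 gained one with outliers left out. That setting also reversed Axin1 (0.04), Ephb1 (-0.05), Plch1 (-0.50), and Mdh1 (-0.02), none of them called. With 1 library left out, the log2 difference of Axin1 ranged from -0.43 to 0.13 and that of Ephb1 from -0.03 to 0.06, and without a change of sign or call those of Gnao1 from -1.60 to -0.16, Mapk8ip2 from -1.17 to -0.28, Chp from 0.20 to 1.23, Fgf9 from -0.53 to -0.18, Mdh1 from 0.22 to 0.53, and Rap1b from 0.20 to 0.52. The cause was not tested. Depth in reads is unknown, so counting error could not be given.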

Other observations

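Rats fell at 2 separate levels of a transcript well beyond Ndufs4 and Mdh1. A transcript was counted when the sorted log2(FPKM + 0.1) values of 1 region had a gap of at least 1.5 with at least 2 rats on each side, a rule chosen after the values were seen. This held in HIP or PFC of F344_Sal rats for 4239 of 14492 tested transcripts (29.3%), and for 1468 of the 6283 with a mean FPKM of at least 5 (23.4%). Among the called transcripts it held for 151 of 1629 (9.27%), all of them among the 645 with a difference over 2-fold. Of these 151, 137 were tested in HIV_Sal rats and 52 called there in the same direction (38%), against 985 of 1436 for the other called transcripts (68.6%). The same direction was seen at 126 of the 137 (92%) and 1407 of the 1436 (98%), and the rule itself selects transcripts with a wide spread within a region. The lower level was often an exact 0 and sometimes not, as for Mapk8ip2 in STR, where 5 rats were at 8.15 to 15.1 FPKM and 7 at 49.5 to 76.5. Within Gnal, STR rats that were listed at 0 for ENSRNOT00000013958 numbered 8 of 12 and the other 4 were at 32.6 to 51.8 FPKM, while the sum of both Gnal transcripts was at 44.1 to 103 in all STR rats but rat 10.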
